A study of Mus musculus with 14 samples.

Results

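Small leucine-rich proteoglycans (SLRPs) are secreted matrix proteins built around a run of leucine-rich repeats. They were followed here through 8 genes, *Dcn*, *Bgn*, *Aspn*, *Lum*, *Fmod*, *Prelp*, *Omd* and *Ogn*, which were picked by symbol among the 23441 genes of the deposited count matrix. All 8 were found, and all 8 passed the filter on low counts that left 17494 genes for testing. RNAseq was run on marrow plugs from the distal tibiae of male mice of C57BL6/SJL background, 24 weeks of age, with RNA of 2 mice pooled in each of 14 samples. Of these, 4 came from BMAd-Pnpla2+/+ mice with free access to food (ad libitum, AL), 4 from the same genotype under caloric restriction (CR), and 3 from BMAd-Pnpla2-/- mice on either diet. CR was a 30% cut in food for 6 weeks. *Pnpla2* encodes adipose triglyceride lipase (ATGL), which starts the breakdown of stored fat, and the study asked what marrow loses when its own adipocytes cannot release that fat.

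The deletion used floxed *Pnpla2* alleles and a Cre gene that needs both *Osterix* and *Adipoq* to have been active. *Osterix*-driven FLPo recombinase, which works in osteoblasts, marrow adipocytes and part of the stroma, turns a reversed Cre cassette in the 3′ untranslated region of *Adipoq* the right way round, and the *Adipoq* promoter then drives Cre. The cassette lowers adiponectin by itself, and by the study's methods recombination depends on age and on the number of cassette alleles, so a BMAd-Pnpla2-/- sample can still hold adipocytes with an intact gene. By the study, control mice also carried the FLPo gene and the cassette, mostly on both alleles, and lacked the floxed alleles, so that all 4 groups share these insertions. Each pool counts as 1 replicate, so n is the number of pools.

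SLRPs coat collagen fibrils in bone, tendon, cartilage and skin, and set how thick the fibrils grow and how far apart they lie. Decorin and biglycan carry chondroitin or dermatan sulfate chains, whereas fibromodulin, lumican and osteomodulin carry keratan sulfate or none. Several bind TGF-β and hold it in the matrix, and soluble biglycan and decorin can act on Toll-like receptors of macrophages. In marrow they are known as products of stromal and bone-forming cells rather than of blood cells.

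In the mm10 build with the GENCODE M21 annotation, 7 of the 8 genes lie in 3 clusters that the family is known for. *Prelp* (chr1:133910304-133921414, minus strand) and *Fmod* (chr1:134037254-134048277, plus strand) face away from each other 115.839 kb apart, with no protein-coding gene between them. *Dcn* (chr10:97479609-97518143) and *Lum* (chr10:97565128-97572703) lie 46.984 kb apart on the plus strand. *Aspn* (chr13:49544443-49567565), *Omd* (chr13:49582462-49592822) and *Ogn* (chr13:49608046-49624501) follow each other on the plus strand with gaps of 14.896 and 15.223 kb, and *Ecm2*, another SLRP gene, sits 11.653 kb before *Aspn*. *Bgn* stands apart on chrX:73483602-73495933, plus strand. Reads were counted over exons, untranslated regions included.

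Counted without regard to strand, *Fmod* and *Prelp* were the 2 genes called under CR in both genotypes. The *Prelp* call in BMAd-Pnpla2-/- was lost with reverse-strand counts. The promoters of *Fmod* and *Prelp* are shown beside those of *Bgn*, the gene with the highest level, and *Ogn*. Each is 300 bases from RefSeq on GRCm38.p6, 250 before and 50 after the annotated start, read 5′ to 3′ on the gene's own strand. Capitals mark every match, on either strand, to TATAAA (the core of the TATA box), CCAAT (the box of that name), ACCACA (RUNX core), CAGAC (Smad-binding element) and AGAACA (glucocorticoid response element core).
Fmod, chr1:134037004-134037303, plus strand: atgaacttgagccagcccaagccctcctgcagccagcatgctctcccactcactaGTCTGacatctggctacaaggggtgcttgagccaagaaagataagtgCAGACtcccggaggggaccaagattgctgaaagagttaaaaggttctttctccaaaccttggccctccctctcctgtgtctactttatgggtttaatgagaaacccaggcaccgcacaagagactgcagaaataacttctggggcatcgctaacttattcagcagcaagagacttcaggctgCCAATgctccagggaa
Prelp, chr1:133921352-133921651, minus strand: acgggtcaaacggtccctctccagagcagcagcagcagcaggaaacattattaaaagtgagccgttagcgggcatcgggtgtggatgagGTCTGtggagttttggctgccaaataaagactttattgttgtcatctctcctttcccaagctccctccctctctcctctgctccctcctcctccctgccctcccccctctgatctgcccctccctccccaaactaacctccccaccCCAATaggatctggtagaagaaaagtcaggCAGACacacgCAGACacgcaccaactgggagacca
Bgn, chrX:73483351-73483650, plus strand: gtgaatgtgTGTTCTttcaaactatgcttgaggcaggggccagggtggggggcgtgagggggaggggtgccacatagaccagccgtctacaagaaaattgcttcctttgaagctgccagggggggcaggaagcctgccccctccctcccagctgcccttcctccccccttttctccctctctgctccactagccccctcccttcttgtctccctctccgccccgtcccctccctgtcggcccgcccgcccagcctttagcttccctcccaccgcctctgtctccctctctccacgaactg
Ogn, chr13:49607765-49608064, plus strand: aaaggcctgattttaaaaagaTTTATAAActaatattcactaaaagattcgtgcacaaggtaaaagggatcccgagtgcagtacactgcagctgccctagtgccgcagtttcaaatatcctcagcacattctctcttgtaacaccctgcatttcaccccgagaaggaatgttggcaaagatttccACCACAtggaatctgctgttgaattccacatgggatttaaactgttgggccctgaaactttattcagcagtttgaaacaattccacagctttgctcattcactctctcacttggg
The *Fmod* window held 2 matches to CAGAC and 1 to CCAAT, and the *Prelp* window held 3 and 1. Neither held the other 3 motifs. Of 32851 promoters in the table, 49.6% held CAGAC, 37.4% CCAAT, 13.6% TATAAA, 16.8% ACCACA and 18.97% AGAACA, so these matches are common ones. *Bgn* held a single match to AGAACA and was 63.7% G and C, against a median of 52.7% over the table. *Ogn* held an overlapping pair of TATAAA matches far before the start and 1 ACCACA. *Aspn*, whose window was 31.0% G and C, held 2 TATAAA matches and 1 CCAAT, and *Omd* held none of the 5 motifs. *Dcn* and *Lum* had no entry in the table.

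Between 18658806 and 21339006 read pairs per sample were counted on the genes of the matrix without regard to strand. Marrow was well represented, with *Ptprc*, the pan-leukocyte antigen, at 392 to 568 CPM (counts scaled to the library total, with TMM factors) and *S100a8*, a neutrophil protein, at 1115 to 3997. These 2 genes were chosen after their values were seen. All 10 marrow stromal markers and all 8 adipocyte markers were also detected. *Pnpla2* itself, the check of the labels, stood at 176 to 305 CPM in BMAd-Pnpla2+/+ AL, 509 to 1029 in BMAd-Pnpla2+/+ CR, 133 to 172 in BMAd-Pnpla2-/- AL and 180 to 271 in BMAd-Pnpla2-/- CR. Every knockout sample lay below every control sample of its diet, by 1.91 on the log2 scale under CR (SE 0.26, adjusted p = 0.0387) and by 0.57 in AL (SE 0.25, adjusted p = 0.99997, unadjusted p = 0.0378). The 3 BMAd-Pnpla2-/- CR libraries carried 50.1% to 50.5% of their reads on the strand that held 4.30% to 4.62% in the other 11, so they were made without strand and library type cannot be told apart from that group. Values below are therefore unstranded counts of all 14 samples. BMAd-Pnpla2-/- AL replicate 2 held the highest level of its group for each of the 8 genes, and results that rest on it are given without it too.

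Compared per kilobase of merged exon, *Bgn* led in every sample. In BMAd-Pnpla2+/+ its level was 137 CPM per kb (SD 36.4, n = 4) with AL feeding and 263 (SD 97.0, n = 4) under CR. In BMAd-Pnpla2-/- it was 138 (SD 51.5, n = 3) with AL feeding and 195 (SD 37.5, n = 3) under CR. Biglycan is one of the main proteoglycans of mineralised bone. *Dcn*, *Prelp*, *Ogn* and *Lum* formed a middle tier, at 11.3 ± 3.09, 9.91 ± 1.90, 9.42 ± 1.71 and 7.09 ± 2.25 CPM per kb (SD, n = 4) in BMAd-Pnpla2+/+ AL. Neighbours in that tier overlapped over the samples. The unstranded *Prelp* counts left out 25.7% to 33.0% of its strand-assigned reads in these samples, and those of *Dcn*, *Ogn* and *Lum* 0%. The *Prelp* level is therefore too low here, and its place in the tier was not settled. *Omd* followed at 1.64 ± 0.547, then *Aspn* at 0.648 ± 0.116 and *Fmod* at 0.177 ± 0.0664 CPM per kb (SD, n = 4), each clear of the next in BMAd-Pnpla2+/+ AL. Under CR in the same genotype *Fmod* stood at 1.93 ± 0.623 and *Aspn* at 1.12 ± 0.312 CPM per kb (SD, n = 4), with *Fmod* above *Aspn* in 3 of 4 samples and the ranges overlapping. In BMAd-Pnpla2-/- CR *Fmod* was still lowest, at 0.982 ± 0.266 against 1.73 ± 0.568 CPM per kb for *Aspn* (SD, n = 3), without overlap.

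**Figure D1:**
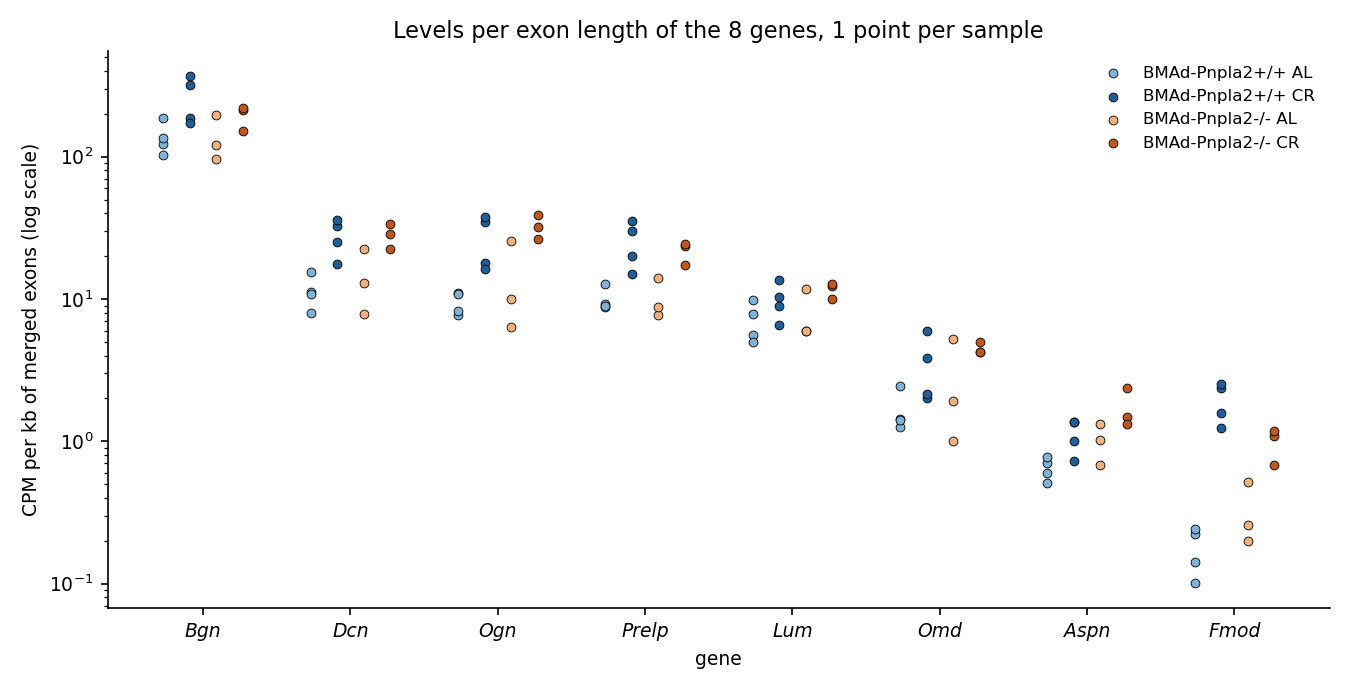
Levels of the 8 genes as CPM per kb of merged exons on a log axis, 1 point per sample, coloured by group, with genes ordered by their mean over all samples. *Bgn* sits above all other genes in every sample. *Fmod*, with the lowest mean in every group but BMAd-Pnpla2+/+ CR, spans the widest range between groups.

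As a share of the summed per-length level of the 8 genes, *Bgn* made up 76.9% (SD 4.85, n = 4) with AL feeding and 73.1% (SD 1.22, n = 4) under CR in BMAd-Pnpla2+/+, and 74.1% (SD 2.96, n = 3) with AL feeding in BMAd-Pnpla2-/-. It made up 65.6% (SD 1.55, n = 3) of the BMAd-Pnpla2-/- CR total, where the 3 samples, at 64.1% to 67.2%, lay below the other 11, the lowest of which was at 69.9%. *Ogn* held the largest part of the difference, at 11.01% (SD 1.10, n = 3) there. Fed freely, BMAd-Pnpla2-/- mice had an *Ogn* share of 6.79% (SD 2.18, n = 3), with the highest sample at 9.22%. For BMAd-Pnpla2+/+ the *Ogn* share was 7.31% on the restricted diet (SD 0.79, n = 4) and 5.44% on free feeding (SD 1.26, n = 4). The 3 BMAd-Pnpla2-/- CR samples are also the only unstranded libraries, so the shares do not separate group from library type. These shares were not tested.

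The comparison of CR with AL in BMAd-Pnpla2+/+ mice asks how marrow with intact adipocyte lipolysis responds to energy deficit. All 8 genes had higher means under CR, and 5 of the 8 passed an adjusted p of 0.05 in edgeR's quasi-likelihood test with Benjamini-Hochberg adjustment over all 17494 genes: *Fmod*, *Prelp*, *Dcn*, *Ogn* and *Bgn*. Of all genes tested, 15% were called higher under CR by that rule. With the study's criteria, which add a log2 fold change over 1, 4 of the 8 passed (all but *Bgn* of those 5), where 7.26% of all genes did. The median log2 fold change of the 8 was 1.19, against 0.003 over all genes. In bulk marrow, a rise in the number of cells that make a transcript and a rise per cell cannot be told apart.

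Among the genes of the chondroitin and dermatan sulfate class, *Dcn*, the collagen-binding proteoglycan decorin, read 90.0, 65.0, 62.9 and 46.2 CPM in the 4 AL samples and 147, 189, 210.0 and 103 CPM in the 4 CR samples. Every CR sample lay above every AL sample, which held for 12.3% of all genes tested. The log2 fold change was 1.30 (SE 0.31, adjusted p = 0.0116). *Bgn* read 1147, 627, 752 and 819 CPM in AL and 1148, 2249, 1961 and 1057 under CR. The groups overlapped: CR replicates 2 and 3 were far above AL, while CR replicate 4 lay below AL replicate 1. Its log2 fold change was 0.94 (SE 0.29, adjusted p = 0.0308), and the call was lost on leaving out any 1 of AL replicates 2, 3 and 4 or CR replicates 2 and 3, with log2 fold changes of 0.73 to 0.93 and adjusted p of 0.0633 to 0.0898.

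*Aspn* encodes asporin, which lacks a glycosaminoglycan chain and binds collagen and TGF-β. It was scarce, at 25 to 35 counts per AL sample and 32 to 71 per CR sample, or 1.42, 1.66, 1.83 and 1.20 CPM and 2.35, 3.24, 3.20 and 1.71 CPM. CR replicate 4 fell within the AL range. The log2 fold change of 0.79 (SE 0.29, 95% interval 0.17 to 1.40) did not pass, with adjusted p = 0.0558. It passed when only reads on the gene's own strand were counted, at 1.12 (adjusted p = 0.0283), and in the 11 strand-specific samples alone, at 1.10 (adjusted p = 0.0329).

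*Fmod*, among the keratan sulfate class, changed most of the 8. Fibromodulin binds collagen fibrils while they form and is best known from tendon and cartilage. It was close to the detection limit in AL, at 15, 15, 9 and 7 counts, and reached 162, 182, 91 and 97 counts under CR. As CPM the AL samples read 0.734, 0.802, 0.470 and 0.336 and the CR samples 7.78, 8.42, 4.10 and 5.19. The lowest CR sample was thus well above the highest AL sample, and the CR mean was 10.9-fold the AL mean. The log2 fold change was 3.44 (SE 0.37, 95% interval 2.64 to 4.24, adjusted p = 3.0e-04). The call held on leaving out any 1 of the 14 samples.

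*Prelp* encodes an SLRP that anchors collagen to the heparan sulfate chains of basement membranes. It read 46.1, 33.2, 31.7 and 32.3 CPM in AL and 54.0, 128, 109 and 72.5 CPM under CR. All 4 CR samples were above all 4 AL samples, and the log2 fold change was 1.34 (SE 0.26, adjusted p = 0.00522). *Lum*, the corneal and dermal keratan sulfate proteoglycan lumican, read 19.3, 24.2, 13.6 and 12.3 CPM in AL and 22.002, 33.0, 25.3 and 15.99 under CR. Its groups overlapped, and the log2 fold change of 0.47 (SE 0.28, 95% interval -0.12 to 1.07) had an adjusted p of 0.214. *Lum* and its neighbour *Dcn* therefore stood on different sides of the threshold, though the difference between the 2 genes was not tested. *Omd*, the osteoblast proteoglycan osteomodulin or osteoadherin, read 3.23, 5.51, 2.82 and 3.17 CPM in AL and 4.52, 8.60, 13.4 and 4.81 under CR. CR replicates 1 and 4 lay within the AL range, and the log2 fold change of 1.09 (SE 0.46) had an adjusted p of 0.0923.

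*Ogn* encodes osteoglycin, or mimecan, a protein of bone and muscle that circulates in blood. It read 28.2, 27.6, 19.7 and 21.1 CPM in AL and 46.1, 88.9, 96.7 and 41.8 under CR. The groups did not overlap, although CR replicates 2 and 3 were far above the other 2 CR samples. The log2 fold change was 1.50 (SE 0.38, adjusted p = 0.0159), and it was 1.29 without CR replicate 3, with an adjusted p of 0.0508. CR replicates 2 and 3 were the 2 highest of the group for *Dcn*, *Bgn*, *Aspn*, *Lum*, *Prelp*, *Omd* and *Ogn*, but not for *Fmod*, of which replicate 1 held the second highest level. Without CR replicate 3, 3 of the 8 genes passed. With each of the 14 samples left out in turn, the count over all genes, in either direction, ran from 2200 to 5959. It was 2628 risen and 1915 fallen with all samples.

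**Figure D2:**
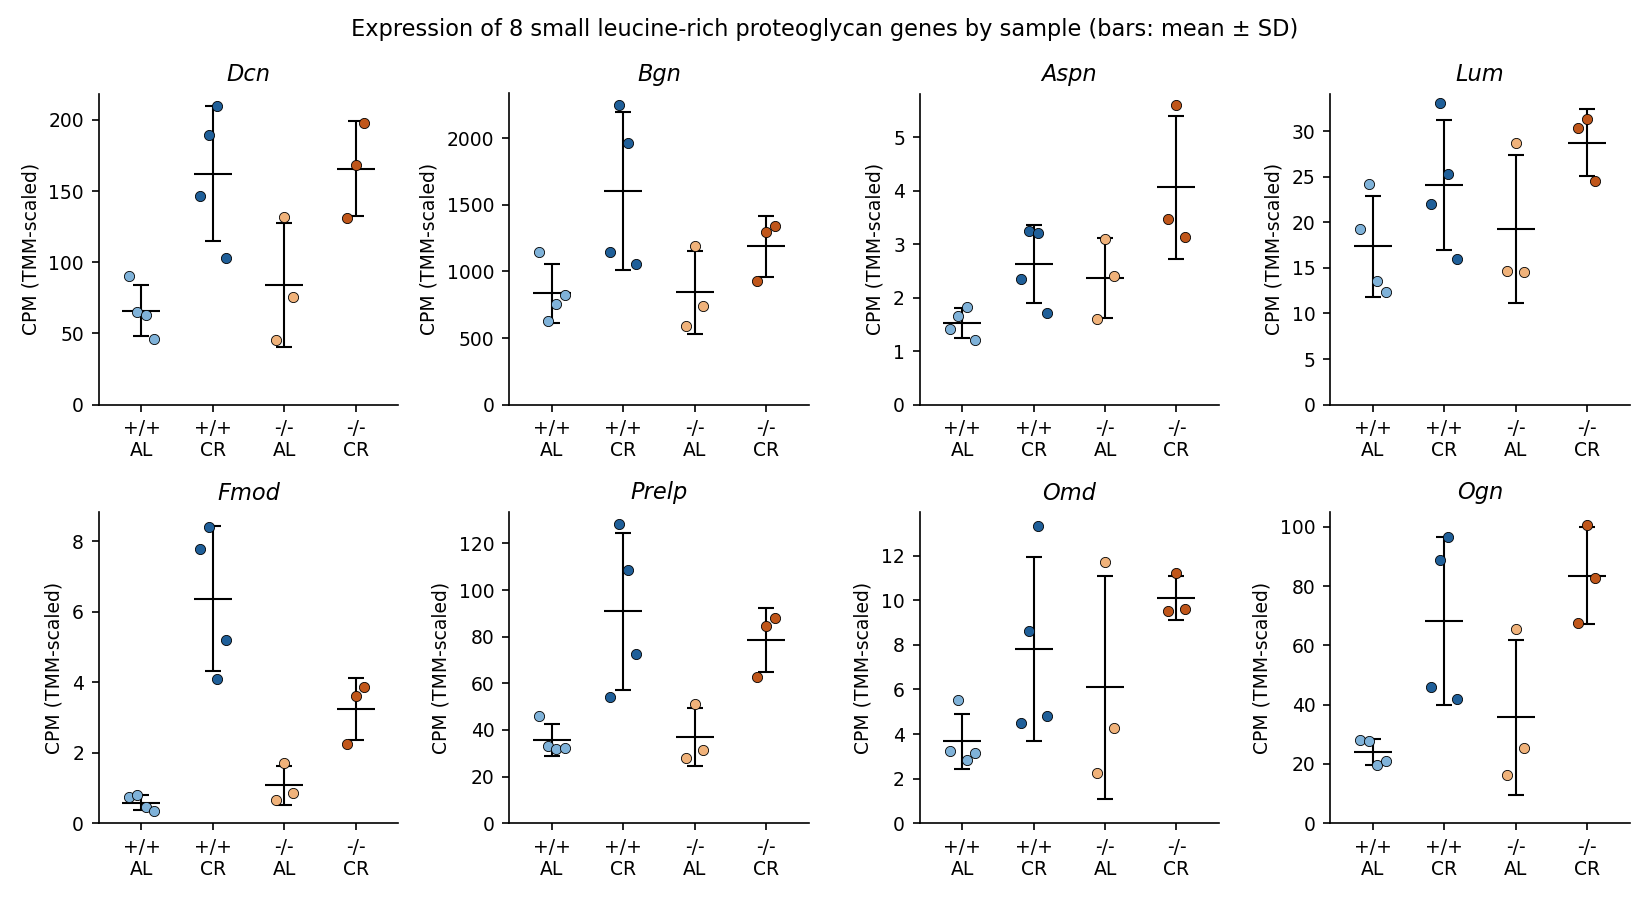
TMM-scaled CPM of the 8 genes in each of the 14 samples, by group (+/+ is BMAd-Pnpla2+/+, -/- is BMAd-Pnpla2-/-), with bars for mean ± SD. *Fmod*, *Dcn*, *Prelp* and *Ogn* show no overlap of AL and CR in +/+, and 1 sample of -/- AL lies above its group for all 8 genes.

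The same comparison in BMAd-Pnpla2-/- mice asks whether the response remains without ATGL in marrow adipocytes. All 8 genes again had higher means under CR, and 2 of the 8, *Fmod* and *Prelp*, passed the adjusted p of 0.05 and the study's criteria as well. By these 2 rules 6.01% and 2.59% of all genes were called higher. The median log2 fold change of the 8 was 0.88, against 0.05 over all genes. In this genotype the CR libraries were unstranded and the AL libraries stranded, so that diet and library type cannot be told apart.

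*Fmod* read 0.661, 1.71 and 0.858 CPM in AL and 2.24, 3.62 and 3.88 under CR, from 12, 32 and 16 counts and 42, 68 and 78 counts. Every CR sample was above every AL sample, as was the case for 20.5% of all genes, and the log2 fold change was 1.59 (SE 0.41, adjusted p = 0.0261). *Prelp* read 27.9, 51.0 and 31.5 CPM in AL and 62.7, 84.6 and 88.1 under CR, without overlap. Its log2 fold change was 1.09 (SE 0.30, adjusted p = 0.0370). In the deposited matrix, where the 3 CR samples hold unstranded and the others reverse-strand counts, it was 0.61 and the adjusted p 0.179, and with reverse-strand counts in all samples it was 0.74 and the adjusted p 0.104.

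*Ogn* read 16.3, 65.5 and 25.5 CPM in AL and 67.6, 101 and 82.7 under CR, a log2 fold change of 1.23 (SE 0.44, adjusted p = 0.0844). *Dcn* read 45.6, 131 and 75.3 CPM in AL and 131, 168 and 197 under CR, a log2 fold change of 0.98 (SE 0.35, adjusted p = 0.0873). For both genes AL replicate 2 reached about the lowest CR sample while the other 2 AL samples were far below. *Omd* read 2.26, 11.7 and 4.29 CPM in AL and 9.50, 11.2 and 9.59 under CR. Here AL replicate 2 was above all 3 CR samples, and the log2 fold change of 0.73 (SE 0.52) had an adjusted p of 0.381.

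*Lum* read 14.7, 28.7 and 14.6 CPM in AL and 30.3, 31.3 and 24.6 under CR (log2 fold change 0.57, SE 0.32, adjusted p = 0.255). *Bgn* read 591, 1194 and 740 CPM in AL and 925, 1297 and 1340 under CR (log2 fold change 0.50, SE 0.33, adjusted p = 0.344). *Aspn* read 1.60, 3.09 and 2.41 CPM in AL and 3.47, 5.60 and 3.13 under CR (log2 fold change 0.78, SE 0.32, adjusted p = 0.124). *Aspn* was the only one of these 3 whose groups stayed apart, and by a narrow margin. Without AL replicate 2, 5 of the 8 genes passed, with log2 fold changes of 2.08 for *Fmod*, 1.997 for *Ogn*, 1.62 for *Omd*, 1.45 for *Dcn* and 1.40 for *Prelp*. On leaving out AL replicate 1 or 3, or CR replicate 2 or 3, 0 of the 8 passed, and without BMAd-Pnpla2+/+ AL replicate 3 only *Fmod* did. Without any 1 of those 4 BMAd-Pnpla2-/- samples the count over all genes, in either direction, was 248 to 817, against 1051 risen and 974 fallen with all samples. With each of the 14 samples left out in turn, that count ran from 248 to 2402, so it moved as the count of the 8 did.

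**Figure D3:**
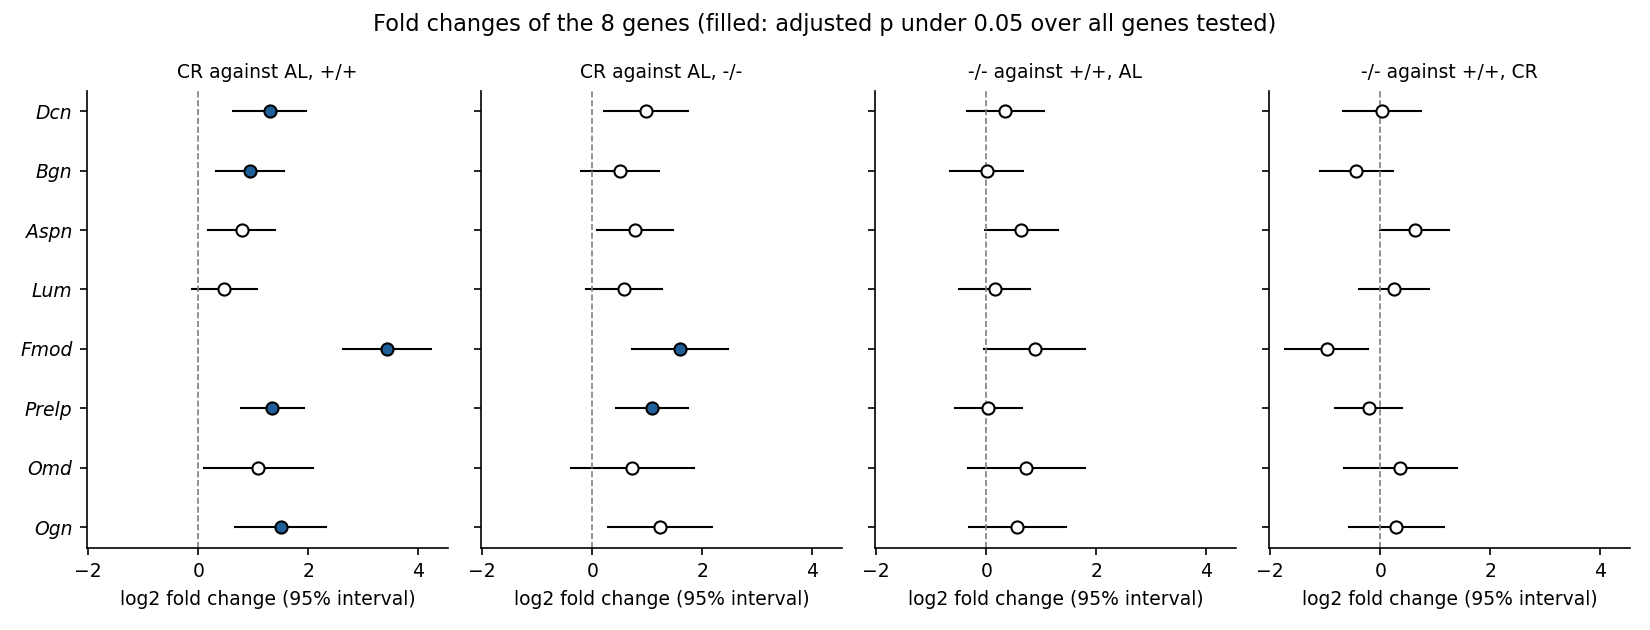
Log2 fold changes of the 8 genes with 95% intervals in 4 comparisons, where filled points passed an adjusted p of 0.05 over all genes tested. The CR panels have 5 filled points in +/+ and 2 in -/-, all to the right of 0, and the genotype panels have none.

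Between genotypes, the question was whether loss of ATGL in marrow adipocytes changes these genes at either diet. In AL, 0 of the 8 passed, as did 0 of all genes (0% called), and 0 of the 8 and 694 of all genes had an unadjusted p under 0.05. DESeq2 called 0 of the 8 and 17 of all genes. The log2 differences of BMAd-Pnpla2-/- from BMAd-Pnpla2+/+ ran from 0.01 for *Bgn* (95% interval -0.65 to 0.67) to 0.88 for *Fmod* (-0.03 to 1.79, unadjusted p = 0.0574). Groups overlapped for all 8 genes, and 5.45% of all genes showed no overlap in either direction. All 8 differences were above 0 with BMAd-Pnpla2-/- AL replicate 2 and 2 of the 8, *Fmod* at 0.38 and *Aspn* at 0.40, without it.

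Under CR, 0 of the 8 passed and 3 of all genes did (0.0171%). At an unadjusted p under 0.05 there were 1 of the 8 and 4052 of all 17494 genes. With 1 sample left out, 0 of the 8 passed each time, but the count over all genes ran from 0 to 2092. It was 2092 without BMAd-Pnpla2+/+ CR replicate 4, 256 without replicate 3 of that group, 240 without BMAd-Pnpla2+/+ AL replicate 2 and at most 2 otherwise. The gene of the 8 with an unadjusted p under 0.05 was *Fmod*, lower in BMAd-Pnpla2-/- by a log2 difference of -0.97 (SE 0.35, 95% interval -1.72 to -0.22, unadjusted p = 0.0150, adjusted p = 0.133). Its 3 knockout samples, at 2.24 to 3.88 CPM, lay below the 4 control samples, at 4.10 to 8.42 CPM, and 16.8% of all genes showed no overlap in either direction. The 3 knockout libraries were unstranded and the 4 control libraries stranded, so genotype under CR and library type cannot be told apart. DESeq2 called *Fmod*, at -1.003 with an adjusted p of 0.0460, as 1 of the 8 and 1 of 1471 genes. The other 7 genes overlapped between the genotypes, with differences from -0.43 for *Bgn* (95% interval -1.10 to 0.23) to 0.62 for *Aspn* (-0.002 to 1.25).

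The response to CR itself was compared between genotypes by the interaction of genotype and diet. It includes the unstranded BMAd-Pnpla2-/- CR libraries, so a difference in response and library type cannot be told apart. No gene of the 8 passed, nor did any of the 17494 (0% called), and DESeq2 called 0 of the 8 and 43 of all genes. At an unadjusted p under 0.05 there were 1824 genes, of which *Fmod* was the 1 of the 8. Its log2 fold change under CR was lower by 1.85 in BMAd-Pnpla2-/- (difference -1.85, SE 0.55, 95% interval -3.02 to -0.67, unadjusted p = 0.00462, adjusted p = 0.342). Without BMAd-Pnpla2-/- AL replicate 2 that difference was -1.35. For the other 7 the differences ran from -0.44 for *Bgn* (95% interval -1.38 to 0.49) to 0.10 for *Lum* (-0.81 to 1.01).

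Reads split by strand bear on *Aspn* and *Omd* of the chr13 cluster, and on *Prelp*. *Cenpp*, a centromere protein gene, spans *Ecm2*, *Aspn*, *Omd* and *Ogn* on the opposite strand (chr13:49464023-49652785) and shares 7 exon bases with *Aspn*. In the 11 strand-specific samples, 20.2% of the *Aspn* reads (114 reads against 449) lay on the strand opposite to the gene, with 6.10% to 45.0% per sample, above the whole library in all 11. For *Omd* it was 5.32%, with 0.538% to 19.5% per sample, above the whole library in 8 of the 11. *Ogn*, within the same span, had 0.144%, and *Dcn*, *Bgn*, *Lum* and *Prelp* had 0.220%, 0.404%, 0.380% and 0.813%. For BMAd-Pnpla2+/+ the *Aspn* share was 27.8% (SD 12.4, n = 4) with AL feeding and 13.8% (SD 8.86, n = 4) under CR. These are shares of strand-assigned reads. Of the *Aspn* reads so assigned, 10.3% to 22.5% per strand-specific sample were absent from the unstranded count, so the share within that count was not measured. *Prelp* shares 350 exon bases with the antisense gene *Gm15851* (chr1:133906531-133914822), and 25.7% to 33.0% of its strand-assigned reads in those 11 samples were absent from the unstranded count, which drops reads that fit both genes. In the 3 BMAd-Pnpla2-/- CR libraries that part was 18.5% to 21.9%, against 27.05% to 30.1% in BMAd-Pnpla2-/- AL, so that a larger part of the *Prelp* reads entered the CR counts of that genotype. *Gm15851* itself had 0 to 6 reverse-strand reads in the 11 samples and 147, 147 and 207 in the 3 unstranded libraries.

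**Figure D4:**
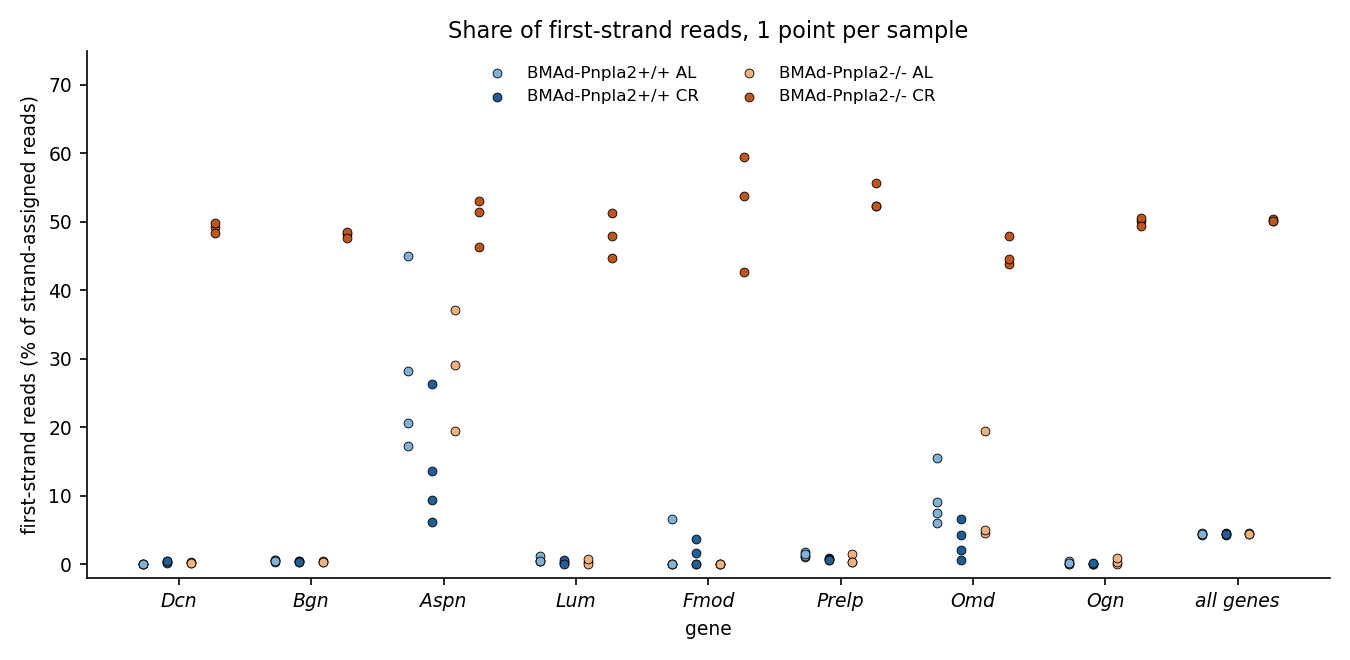
Share of strand-assigned reads on the strand labelled first by STAR, in percent, for the 8 genes and over all genes, 1 point per sample. The BMAd-Pnpla2-/- CR samples sit near 50% for every gene, and among the other 11 *Aspn* stands above the library-wide share of 4.30% to 4.62% in all 11 and *Omd* in 8.

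The 8 genes moved together over the 14 samples, as many other genes did with them. Pearson's r between log2 CPM values of 2 genes ran from 0.579 to 0.958 over the 28 pairs, with a median of 0.824. After group means were subtracted it ran from 0.413 to 0.941, with a median of 0.707. Against 12916 other genes, the 95th percentile of r ran from 0.659 for *Aspn* to 0.906 for *Bgn*. After group means were subtracted it ran from 0.547 for *Fmod* to 0.878 for *Bgn*. Whether the 8 are more alike than other genes was not tested. All these r values are descriptions over 14 points that share groups and library scaling. *Omd* and *Ogn*, which are neighbours, had 0.941 on both scales, whereas the neighbours *Prelp* and *Fmod* had 0.865 as is and 0.433 within groups. *Bgn* and *Prelp*, on different chromosomes, had 0.926 and 0.928. *Fmod* was the gene least like the others within groups, with r of 0.413 to 0.686.

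The genes most like each of the 8 by the same measure were searched among 12917 that averaged 50 counts or more. For *Bgn* they were *Slc12a7* (r = 0.988), *Cdon* (0.984) and *Zcchc24* (0.982), and within groups *Cdon* (0.985), *Emp2* (0.984) and *Tead3* (0.980). For *Dcn* they included *Cpne8* (0.970) and *Il17rd* (0.970), and within groups *Itm2b* (0.985), *Wwtr1* (0.967) and *Igfals* (0.960). *Fap*, the fibroblast activation protein gene, was among the 3 nearest of both *Lum* (0.875) and *Ogn* (0.973), and *Tmem47* of both *Omd* (0.930) and *Ogn* (0.978). *Prelp* was nearest to *Nfib* (0.973), *Cd200* (0.972) and *Abcc9* (0.972). *Fmod* was nearest to *Bcl11b* (0.962), *Cd6* (0.952) and *Kazald1* (0.944), and within groups to *Dnm1* (0.878), *Cpe* (0.873) and *Dmp1* (0.860). *Bcl11b* and *Cd6* are known from T cells and *Dmp1* from osteocytes. High r was common: the 95th percentile over all genes searched was 0.906 for *Bgn*, 0.864 for *Dcn* and 0.826 for *Fmod*.

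The other SLRP genes were measured for comparison. Of 10, *Kera* and *Epyc* were not in the matrix and 8 were tested, of which 2 rose under CR in BMAd-Pnpla2+/+ and 1 in BMAd-Pnpla2-/-. Of all genes, 15% and 6.01% were called higher in these comparisons. *Podn*, podocan, rose in both, from 29.1 ± 9.16 to 99.4 ± 35.7 CPM (SD, n = 4), a log2 fold change of 1.77 (SE 0.31, adjusted p = 0.00349), and from 21.8 ± 9.27 to 50.2 ± 12.8 CPM (SD, n = 3), a log2 fold change of 1.20 (SE 0.36, adjusted p = 0.0471). *Chadl* rose in BMAd-Pnpla2+/+ by a log2 fold change of 0.78 (SE 0.25, adjusted p = 0.0349), and shares 1023 exon bases with *L3mbtl2* on the other strand. *Podnl1*, *Tsku*, *Nyx*, *Chad*, *Ecm2* and *Optc* did not pass in either genotype, with log2 fold changes of 0.61, 0.86, -0.64, 0.69, 0.16 and 0.27 in BMAd-Pnpla2+/+. *Ecm2*, the cluster neighbour of *Aspn*, read 5.71 ± 1.38 CPM in AL and 6.36 ± 2.95 under CR (SD, n = 4) in that genotype.

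Enzymes that build the sugar chains had a median change near 0. Of 29 such genes, 7 rose and 2 fell under CR in BMAd-Pnpla2+/+, with a median log2 fold change of 0.04, and 0 rose and 2 fell in BMAd-Pnpla2-/-, with 0.06. The 3 with the smallest p were *B3gnt2*, which extends lactosamine chains (-0.94, adjusted p = 0.00925), the sulfotransferase *Chst15* (0.56, adjusted p = 0.0129) and the sulfotransferase *Chst12* (-0.43, adjusted p = 0.0189). Of 23 collagens, processing enzymes, growth factors and receptors known as SLRP partners, 14 rose and 2 fell in BMAd-Pnpla2+/+, with a median of 0.97, against 2628 risen and 1915 fallen of all 17494. *Met* rose by 0.97 (adjusted p = 0.00450), *Col6a3*, a collagen that decorin and biglycan bind, by 1.54 (adjusted p = 0.00506) and *Tgfb3* by 1.26 (adjusted p = 0.00552). In BMAd-Pnpla2-/-, 0 of these 23 rose and 1 fell, with a median of 0.49, against 1051 risen and 974 fallen of all genes. The difference between genotypes in the response to CR passed for 0 of the 23, as for 0 of all 17494 genes. Its estimates were below 0 for 19 and above 0 for 4 of the 23, with a median of -0.48. A difference in response and library type cannot be told apart here. Of 19 other proteoglycans, 9 rose in BMAd-Pnpla2+/+ and 5 in BMAd-Pnpla2-/-, with medians of 0.90 and 0.63. *Spock2*, a testican, led in BMAd-Pnpla2+/+ at 2.17 (adjusted p = 6.2e-04) and stood at 1.58 (adjusted p = 0.0106) in BMAd-Pnpla2-/-. The glypican *Gpc4* (1.02 and 0.73) and the syndecan *Sdc2* (0.90 and 0.88) also passed in both.

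Markers of the cells that could hold these transcripts were followed as well. The summed level of the 8 genes ran from 785 to 1336 CPM in BMAd-Pnpla2+/+ AL, 1302 to 2709 in BMAd-Pnpla2+/+ CR, 700.0 to 1487 in BMAd-Pnpla2-/- AL and 1231 to 1750 in BMAd-Pnpla2-/- CR. The sum of 10 marrow stromal markers ran over 5830 to 7273, 7275 to 12566, 5404 to 8889 and 6965 to 10482 CPM in the same order. Of these 10, 5 rose in BMAd-Pnpla2+/+ and 2, *Kitl* and *Igfbp5*, in BMAd-Pnpla2-/-, with median log2 fold changes of 0.68 and 0.54. Of all genes tested, 15% and 6.01% were called higher under CR in these genotypes. All 8 adipocyte markers rose in both genotypes, with medians of 1.90 and 2.19 and sums of 745 to 1939, 2038 to 5127, 324 to 756 and 1309 to 2118 CPM. Of 8 osteoblast markers 3 rose in BMAd-Pnpla2+/+, *Dmp1*, *Alpl* and *Sp7*, and 1, *Dmp1*, in BMAd-Pnpla2-/-. The other 5 and 7 did not pass, and the medians of the 8 were 0.49 and 0.38. Their sums were 217 to 445, 242 to 763, 243 to 607 and 386 to 707 CPM. Of 8 vascular wall markers 4 rose in BMAd-Pnpla2+/+ and 0 in BMAd-Pnpla2-/-, with medians of 0.60 and 0.34. Their sums were 425 to 589, 501 to 1002, 394 to 573 and 479 to 664 CPM.

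Tissues that could enter a marrow plug at its edges were checked too. Of 10 tendon and fibroblast markers, 7 were tested, and 2 rose and 1 fell in BMAd-Pnpla2+/+, while *Tnmd*, *Thbs4* and *Clec3b* did not pass the filter. In that genotype 15% of all genes were called higher under CR. *Postn* rose by 1.92 (adjusted p = 0.00864). *Pi16*, with the highest mean of the 10 in BMAd-Pnpla2+/+ AL, read 168 ± 19.7 CPM there and 122 ± 29.2 under CR (SD, n = 4). *Tnmd* and *Thbs4* read at most 0.534 CPM in any sample, so the sums hold little of either. The sums of the 10 were 278 to 380, 338 to 706, 271 to 357 and 301 to 357 CPM. Of 8 chondrocyte markers 3 were tested and 0 passed, with sums of 20.9 to 53.6, 22.1 to 118, 22.7 to 33.9 and 33.6 to 54.7 CPM. Of 8 muscle markers 5 were tested and 0 passed. BMAd-Pnpla2-/- CR replicates 1, 2 and 3 had sums of 11.6, 38.5 and 124 CPM, and the highest sum in any other group was 28.6. In BMAd-Pnpla2-/- all 5 had higher estimates under CR than in AL, with a median log2 fold change of 1.95. At an unadjusted p under 0.05 there were 4 of these 5 and 5085 of all 17494 genes. In that genotype diet and library type cannot be told apart. BMAd-Pnpla2+/+ CR replicate 2 had the highest stromal, adipocyte, osteoblast, vascular, tendon and chondrocyte sums of the 14 samples and the highest *Fmod*, *Bgn*, *Lum* and *Prelp* levels, and the sample highest within BMAd-Pnpla2-/- AL for the 8 genes was highest there for the stromal, adipocyte, osteoblast, tendon and vascular sums too. The part of these cell types in the levels of the 8 genes was not tested.

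**Figure D5:**
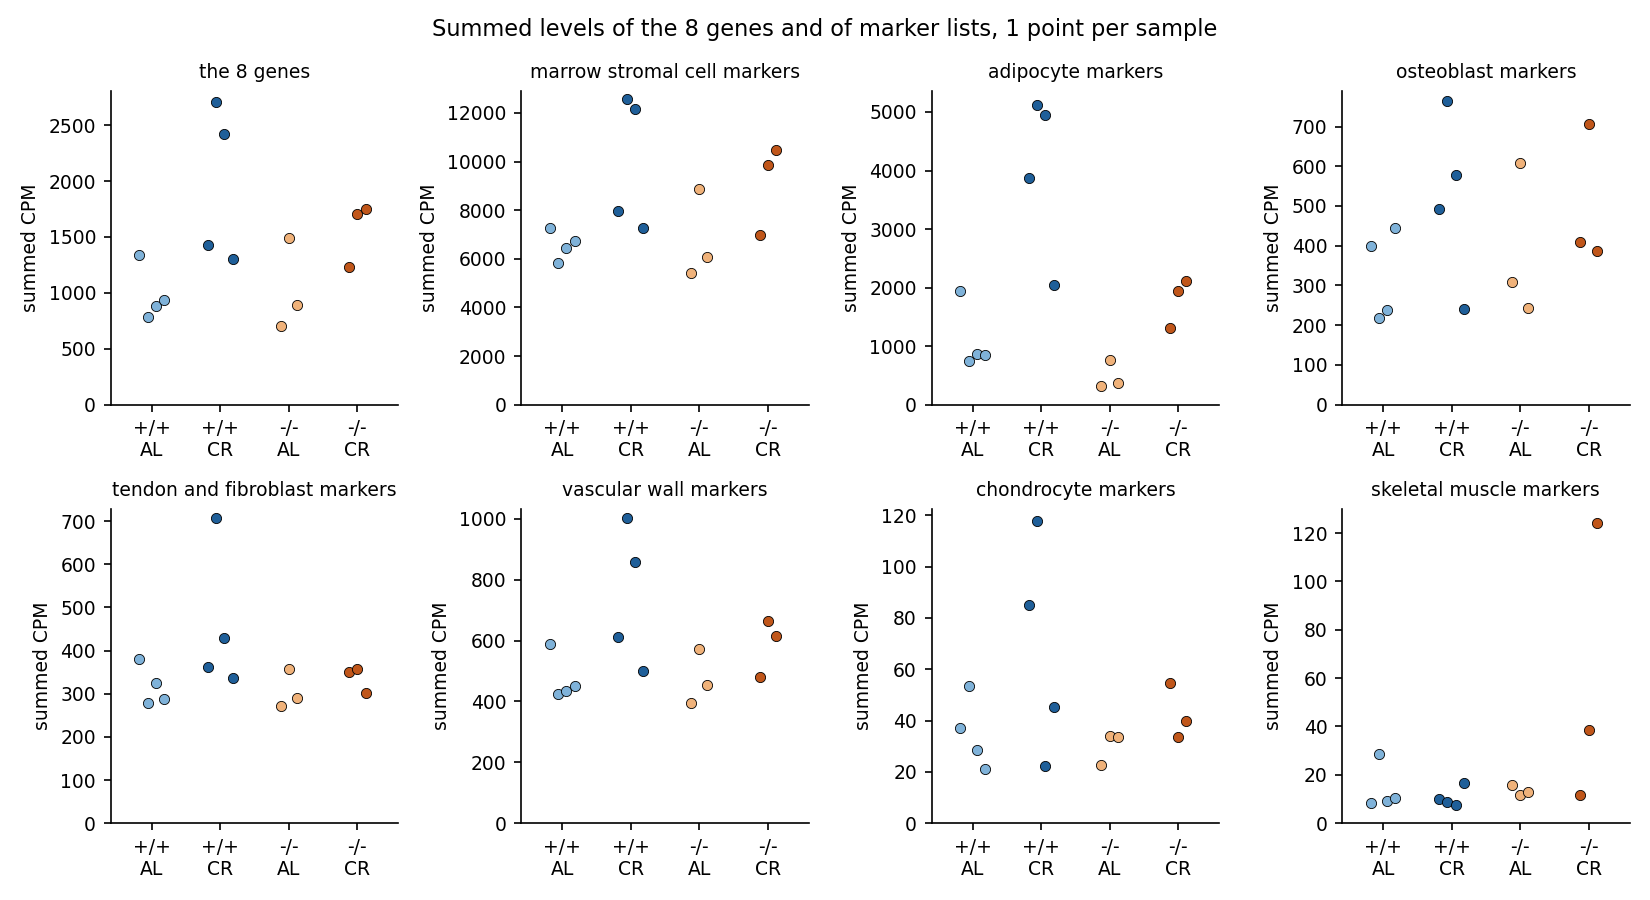
Summed CPM of the 8 genes and of 7 marker lists, 1 point per sample, by group (+/+ is BMAd-Pnpla2+/+, -/- is BMAd-Pnpla2-/-). Replicates 2 and 3 of +/+ CR are high for the 8 genes and for the stromal, adipocyte and vascular sums alike. The muscle sum is highest in replicate 3 of -/- CR, followed by replicate 2 of that group.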

How the data were processed

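The authors aligned the read pairs to mm10 with STAR, after FastQC 0.11.9 per the submitters' processing notes, and deposited raw counts per gene, without normalization: for each of the 14 samples 1 unstranded count and 1 count per strand of 55401 genes, and 1 matrix of 23441 genes. The matrix holds reverse-strand counts for 11 samples and unstranded counts for the 3 BMAd-Pnpla2-/- CR samples. No column of another series was found in it (0 left out).

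Here, unstranded counts of the matrix genes were scaled by TMM, filtered with filterByExpr (17494 genes left) and fitted by edgeR's quasi-likelihood test (robust, two-sided) in 1 model of the 4 groups, with Benjamini-Hochberg adjustment of p-values separately in each of 5 comparisons. SEs are the fold change over the square root of F, and intervals are at 95%. Log2 CPM used a prior count of 2. Alternatives were DESeq2, other scalings, no filter, other counts and each sample left out. Scripts were tested on simulated data. Depth was 18658806 to 21339006 counts per sample, and p-values measure the spread between pools of 2 mice.

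The genes and lists were chosen with earlier results of these data known. The named genes were *Pnpla2*, the 8 genes, other SLRP genes, at most 3 genes per list with the smallest p in BMAd-Pnpla2+/+, genes beside or opposite to the 8, and the 3 with the highest r, except for an item that is not reported here. Of the 8, 6 matched the RefSeq promoter table. Tools were Python 3.11.15, numpy 2.4.6, pandas 2.3.3, matplotlib 3.10.9, DESeq2 1.42.0, edgeR 4.0.16 and limma 3.58.1 in R 4.3.3.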

Additional observations from a re-analysis of the deposited data

Results flagged for a closer look

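*Prelp* in BMAd-Pnpla2+/+ AL replicate 1, at 46.1 CPM, stood apart from the other 3 samples of its group, at 31.7 to 33.2 CPM, by Dixon's test at the 95% level on log2 CPM. The test was run on the 8 genes in both groups of 4 samples, 16 in all, and chance alone gives about 1 in 20. The log2 fold change of *Prelp* under CR in that genotype passed the threshold with each sample left out in turn.

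*Aspn* reads on the strand opposite to the gene, which were compared on their own nowhere, made up 20.2% of its strand-assigned reads in the 11 strand-specific samples. They exceeded the share of the whole library in all 11. Per sample, 10.3% to 22.5% of the strand-assigned *Aspn* reads were absent from the unstranded count. How many opposite-strand reads that count holds was not measured.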

How the results depend on the processing

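The counts of called genes were least stable in BMAd-Pnpla2-/-, where 2 of the 8 passed. DESeq2 gave 4, no low-count filter 1 and the deposited matrix 1, and 1 passed the study's criteria as well both without the filter and in the deposited matrix. With 1 sample left out the count ran from 0 to 5, and from 0 to 5 by the study's criteria. Over all genes these counts ran from 248 to 2402 and from 124 to 772. In BMAd-Pnpla2+/+ the count of the 8 ran from 3 to 6 around 5, and that over all genes from 2200 to 5959. Under CR, DESeq2 called 1 gene between genotypes by either rule, *Fmod*. Reverse-strand counts called 2 genes in BMAd-Pnpla2-/-, *Fmod* and *Aspn* (1.11, adjusted p = 0.0478), with *Prelp* at 0.74 (adjusted p = 0.104). In the unstranded CR libraries of that genotype these counts also take in opposite-strand reads, which they leave out in its AL libraries. For *Aspn*, which has many such reads, diet and library type cannot be told apart in this setting. The alternative of 11 strand-specific samples was chosen after seeing the data. No scaling moved the median of all genes by over 0.1.

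Replicate numbers did not pair the samples: of 19 same-number pairs, 7 had a correlation of deviations over 0.1, in a range of -0.37 to 0.33. With the replicate block 6 genes passed in BMAd-Pnpla2+/+ and 5 in BMAd-Pnpla2-/-, 4 of them by the study's criteria.

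Small differences that missed the threshold changed sign. With the replicate block these were, between genotypes in AL, *Bgn* (-0.17), *Lum* (-0.024) and *Prelp* (-0.10), under CR *Dcn* (-0.12) and in the interaction *Aspn* (0.032). *Dcn* under CR was also -0.00103 with DESeq2, -0.0178 without the filter and -0.0743 with reverse-strand counts. Scaled by total counts, *Bgn* in AL was -0.0125 and *Aspn* in the interaction 0.00124. With 1 sample left out, the differences between genotypes in AL ran from -0.33 to 0.21 for *Bgn*, -0.13 to 0.65 for *Dcn*, -0.24 to 0.36 for *Lum*, -0.21 to 0.91 for *Ogn*, -0.16 to 1.13 for *Omd* and -0.27 to 0.21 for *Prelp*. Under CR they ran from -0.14 to 0.18 for *Dcn* and -0.38 to 0.00156 for *Prelp*. The interaction ran from -0.31 to 0.23 for *Aspn*, -0.61 to 0.15 for *Dcn*, -0.10 to 0.50 for *Lum*, -0.62 to 0.50 for *Ogn*, -0.75 to 0.53 for *Omd* and -0.42 to 0.0551 for *Prelp*. The cause was not tested.

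At 7 to 15 counts of *Fmod* and 25 to 35 of *Aspn* per BMAd-Pnpla2+/+ AL sample, counting error limits both. Fitting only the 2 groups compared gives no interaction.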
